A study of Mus musculus with 12 samples.

Results

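The 10 genes described here belong to the circadian clock and its direct output, out of 24062 gene symbols counted in each kidney. They are *Per1*, *Per2*, *Per3*, *Dbp*, *Tef*, *Nr1d1*, *Nr1d2* and *Bhlhe40*, which in peripheral tissues peak at about the same part of the day, and *Arntl* and *Npas2*, which peak in the opposite phase. Members were found by gene symbol, and all 10 were listed in every kidney and passed the filter on low counts in every comparison. The set itself was chosen on measured values: in earlier results of these same kidneys *Per2* and *Bhlhe40* were lower in both models, and clock genes as a set were lower in *let-7* KO. Differences between either mutant and its littermates are therefore given as a description. Counts of members below a test's threshold are printed beside the same share of all genes, and again under alternatives beside the number of genes called. Nothing is read from them.

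RNA from 12 whole kidneys at postnatal day 3 was sequenced, with 3 kidneys in each of 4 groups and 2 litters per group. *LIN28B Wt1* kidneys, labelled LIN28OE and described here from the methods of the study, came from *TRE-LIN28B; lox-STOP-lox-rtTA; Wt1-Cre* mice on C57BL/6, in which doxycycline turns on human *LIN28B* in the *Wt1*-expressing lineage only, after 1 day of doxycycline late in gestation, and their controls were wild-type littermates of the same strain (C57BL/6 WT), which shared the treated dam. *let-7* KO kidneys lacked *let-7a1*, *let-7d* and *let-7f1* in every cell, as a constitutive knockout, in a mix of CD1 and C57BL/6, and their controls were wild-type littermates of that mix (*let-7* WT). No allele or agent is stated to be shared by all 4 groups, and the hour at which kidneys were collected is not given in the sources used here.

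The clock is a feedback loop of transcription. CLOCK, or its relative NPAS2, pairs with BMAL1, the product of *Arntl*, binds E-box elements and switches on *Per*, *Cry*, *Nr1d1*, *Nr1d2*, *Dbp* and *Bhlhe40*. PER and CRY proteins then inhibit that pair, while NR1D1 and NR1D2 repress *Arntl* and *Npas2* through ROR elements, so that these last genes peak when the others are low. DBP, TEF and HLF bind D-box elements and pass the rhythm on, and in the kidney the clock is known for setting daily rhythms of sodium and water transport.

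The microRNAs deleted in *let-7* KO are printed first, because their shared seed defines which transcripts they can pair with. In capitals is the seed, bases 2 to 8, which is identical in the 3 (RefSeq, GRCm38.p6, chromosome 13).
mmu-let-7a-5p: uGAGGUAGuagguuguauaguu
mmu-let-7d-5p: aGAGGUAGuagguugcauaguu
mmu-let-7f-5p: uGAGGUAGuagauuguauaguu
The reverse complement of the seed, CTACCTC, was present once in the longest annotated 3′ UTR of *Per1* (GENCODE, GRCm38), and TACCTCA, the shorter match followed by A, once each in those of *Per3* and *Tef*. The windows around these matches are given with the match in capitals.
Per1: tggacccctCTACCTCtcctctgcc
Per3: gccgtgcgtTACCTCAccacagtct
Tef: tctgtcatgTACCTCAccctcccca
*Per2* and *Bhlhe40* held neither sequence in 3′ UTRs of 1889 and 1593 bases, and the other 5 members held none either. Across 19266 genes with a 3′ UTR, 9.33% held CTACCTC, 10.1% held TACCTCA and 15.3% held either.

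Clock elements were searched on both strands in RefSeq promoters, taken as the 250 bases before and 50 bases after each start site (GRCm38.p6). The table held no entry for *Per2* and *Bhlhe40*. An E-box, CACGTG, was found in *Per1* and at both start sites of *Tef*, and in 7.15% of all 32851 promoters. *Per3* held 2 copies of the D-box TTATGTAA (TTATGTAA or TTACGTAA in 1.06% of promoters), *Nr1d1* held the E-prime box CACGTT read on the other strand (4.68% of promoters), and *Arntl* held the ROR element core TAGGTCA (2.61%). The element is in capitals in each window, and each window is read along the gene's own strand.
Per1 (E-box, chr11:69098763-69098808, plus strand): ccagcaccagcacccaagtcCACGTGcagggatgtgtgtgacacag
Tef (E-box, chr15:81802526-81802571, plus strand): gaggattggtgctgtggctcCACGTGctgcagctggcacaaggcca
Tef (E-box, chr15:81811256-81811301, plus strand): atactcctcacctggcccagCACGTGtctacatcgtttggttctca
Per3 (D-box, chr4:151044843-151044890, minus strand): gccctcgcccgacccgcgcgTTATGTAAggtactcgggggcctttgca
Per3 (D-box, chr4:151044796-151044843, minus strand): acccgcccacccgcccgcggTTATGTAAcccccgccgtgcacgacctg
Nr1d1 (E-prime box, chr11:98775380-98775425, minus strand): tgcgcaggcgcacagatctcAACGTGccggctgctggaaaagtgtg
Arntl (ROR core, chr7:113207521-113207560, plus strand): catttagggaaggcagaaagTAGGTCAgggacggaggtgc
*Dbp*, *Nr1d2* and *Npas2* held none of these letters in their windows. A match or its absence is a description of the sequence only.

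Each kidney yielded between 39926235 and 61872736 counts, so that 3 counts correspond to between 0.0490 and 0.0836 CPM (counts per scaled library total). Kidney markers were present in every sample: *Lrp2*, a proximal tubule receptor, ranged from 144 to 430 CPM, and *Umod*, the thick limb protein uromodulin, from 102 to 593 CPM. The globin symbols *Hbb-bt* and *Hba-a1* had a count of 0 in all 12 kidneys. The mouse *Lin28b* symbol was at 3.79, 4.19 and 1.17 CPM in *LIN28B Wt1* kidneys and at most 0.628 CPM in their controls, and the deleted *Mirlet7d* had no count in any *let-7* KO kidney but also none in 1 *let-7* WT kidney. By qRT-PCR the paper saw no change of endogenous *Lin28b* mRNA in *LIN28B Wt1* kidneys. Whether the *Lin28b* counts came from the mouse gene or the human transgene was not tested. CPM values below were scaled with TMM factors over all 12 kidneys. Fewer expressing cells and less RNA per cell cannot be told apart in whole kidneys.

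Of the 3 period genes, which encode the inhibitors of the loop, *Per2* carried the largest difference. *Per2* lies at chr1:91415982-91459324 (minus strand, GRCm38). In C57BL/6 WT kidneys it was at 6.74, 5.51 and 6.55 CPM, and in *LIN28B Wt1* kidneys at 1.83, 2.54 and 2.90 CPM. In *let-7* WT kidneys it was at 13.9, 16.2 and 12.2 CPM, and in *let-7* KO kidneys at 0.380, 3.19 and 2.01 CPM. Every mutant kidney lay below every control kidney of its strain. The mutant groups overlapped each other, whereas the 2 wild-type groups did not, with the mixed-strain WT on top. The log2 fold change was -1.37 (SE 0.40) for *LIN28B Wt1*, or 38.7% of the control mean, and -2.96 (SE 0.65) for *let-7* KO, or 13.2% of the control mean. In one fit of all 12 kidneys the first minus the second was 1.56 with an SE of 0.77. Within litters the difference in mean log2 CPM was -1.48 and -1.17 for *LIN28B Wt1* kidneys, while for *let-7* KO kidneys it was -3.70 and -2.59. The lowest value rests on 23 counts in *let-7* KO kidney 1, and leaving that kidney out gave -2.47 for *let-7* KO. With each library's bias on transcript length as a covariate, an alternative chosen after seeing the data, it was -4.26.

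*Per1* is the period gene that also answers to glucocorticoids. It lies at chr11:69095217-69109960 (plus strand). Levels were 6.58, 7.34 and 8.01 CPM in C57BL/6 WT, 6.55, 4.43 and 3.74 CPM in *LIN28B Wt1*, 5.32, 4.41 and 4.79 CPM in *let-7* WT and 4.83, 3.21 and 9.36 CPM in *let-7* KO. The *LIN28B Wt1* kidneys lay just below their controls, with the highest at 6.55 and the lowest control at 6.58 CPM, and the *let-7* KO kidneys lay on both sides of theirs. Log2 fold changes were -0.57 (SE 0.36) and 0.24 (SE 0.51). Without *let-7* KO kidney 3, the highest of all 12, the latter became -0.27.

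*Per3* was the most uneven of the period genes. It lies at chr4:151003652-151044665 (minus strand). Its C57BL/6 WT kidneys stood close together at 8.39, 8.37 and 9.21 CPM, while the *LIN28B Wt1* kidneys were at 9.58, 10.5 and 2.07 CPM. In *let-7* WT it was at 3.65, 19.5 and 7.42 CPM and in *let-7* KO at 6.66, 12.4 and 7.83 CPM, so that groups overlapped in both models. Log2 fold changes were -0.23 (SE 0.51) and -0.21 (SE 0.56), less than their errors. Both turned positive when 1 kidney was left out, to 0.21 without *LIN28B Wt1* kidney 3 and to 0.68 without *let-7* WT kidney 2, and both were more negative with the transcript-length covariate, at -1.06 and -0.78.

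*Dbp* and *Tef* encode D-box activators, and *Dbp* is commonly among the most strongly cycling transcripts of adult tissues. *Dbp* lies at chr7:45705088-45710203 and *Tef* at chr15:81802421-81826863 (plus strand, both). *Dbp* stood at 8.31, 11.1 and 9.29 CPM in C57BL/6 WT, 11.5, 6.92 and 9.74 CPM in *LIN28B Wt1*, 11.04, 9.50 and 4.14 CPM in *let-7* WT and 6.91, 9.71 and 9.27 CPM in *let-7* KO. The groups overlapped throughout, with log2 fold changes of -0.02 (SE 0.30) and 0.05 (SE 0.43), which took either sign when 1 kidney was left out (-0.19 to 0.17 for the first, -0.27 to 0.32 for the second). *Tef* was more even: 59.3, 56.4 and 54.5 CPM in C57BL/6 WT, 53.9, 44.5 and 41.5 CPM in *LIN28B Wt1*, 58.9, 47.7 and 53.8 CPM in *let-7* WT and 44.5, 30.9 and 28.9 CPM in *let-7* KO. Its mutant kidneys were all below their controls in both models, by log2 fold changes of -0.28 (SE 0.16) and -0.63 (SE 0.24), and within each litter the direction was the same.

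*Nr1d1* and *Nr1d2* encode the nuclear receptors REV-ERBα and REV-ERBβ, which repress *Arntl*. They lie at chr11:98767932-98775333 and chr14:18204054-18239127 (minus strand, both). *Nr1d1* was at 10.1, 14.9 and 16.3 CPM in C57BL/6 WT and at 12.1, 9.33 and 12.6 CPM in *LIN28B Wt1*. In *let-7* WT it was at 20.8, 21.3 and 17.2 CPM and in *let-7* KO at 9.81, 18.2 and 17.8 CPM. The groups overlapped in both models, with log2 fold changes of -0.28 (SE 0.28) and -0.39 (SE 0.30). *Nr1d2* was at 45.6, 35.6 and 37.7 CPM in C57BL/6 WT, 7.73, 18.8 and 41.7 CPM in *LIN28B Wt1*, 36.4, 25.9 and 60.9 CPM in *let-7* WT and 30.9, 13.5 and 16.5 CPM in *let-7* KO. It was lower in the mean of each mutant, by log2 fold changes of -0.79 (SE 0.48) and -1.02 (SE 0.39), but the groups overlapped. In *LIN28B Wt1* the lower level was seen in litter 1 only, with a difference in mean log2 CPM of -1.74 there and of 0.14 in litter 2. Without *LIN28B Wt1* kidney 3, the kidney of litter 2, the log2 fold change was -1.59, and with the transcript-length covariate the *let-7* KO value was -0.25.

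*Bhlhe40* encodes DEC1, a repressor that competes at E-boxes and also answers to growth and stress signals. The gene lies at chr6:108660629-108666925 (plus strand). It was at 55.5, 59.7 and 69.7 CPM in C57BL/6 WT and 30.2, 46.2 and 41.5 CPM in *LIN28B Wt1*. In *let-7* WT it was at 111, 98.3 and 119 CPM and in *let-7* KO at 75.6, 58.7 and 52.1 CPM. Every mutant kidney was below every littermate-strain control, by log2 fold changes of -0.65 (SE 0.20) and -0.83 (SE 0.20). The *let-7* KO mean of 62.1 ± 12.1 CPM (SD, n = 3) was close to the C57BL/6 WT mean of 61.6 ± 7.31 CPM (SD, n = 3), in kidneys of another strain. The direction was the same within each litter, with differences in mean log2 CPM of -0.62 and -0.75 for *LIN28B Wt1* kidneys, and of -0.65 and -1.20 for *let-7* KO kidneys.

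*Arntl* and *Npas2* encode the activators of the loop. They lie at chr7:113207465-113314126 and chr1:39193731-39363236 (plus strand, both). *Arntl* was at 17.1, 14.6 and 13.4 CPM in C57BL/6 WT, 13.9, 9.14 and 6.81 CPM in *LIN28B Wt1*, 15.01, 8.49 and 23.8 CPM in *let-7* WT and 11.1, 3.002 and 15.8 CPM in *let-7* KO. The groups overlapped, and log2 fold changes were -0.60 (SE 0.30) and -0.67 (SE 0.56), with -0.91 to -0.39 and -1.16 to -0.24 when 1 kidney was left out. *Npas2* was at 3.68, 3.40 and 2.36 CPM in C57BL/6 WT, 0.0980, 3.57 and 0.757 CPM in *LIN28B Wt1*, 1.82, 2.41 and 1.71 CPM in *let-7* WT and 0.910, 0.205 and 0.446 CPM in *let-7* KO. All *let-7* KO kidneys lay below all *let-7* WT kidneys, whereas 1 *LIN28B Wt1* kidney was at the level of its controls. Log2 fold changes were -1.10 (SE 1.01) and -1.93 (SE 1.03), on as few as 6 counts in a kidney. The first was -2.86 without *LIN28B Wt1* kidney 2 and -0.55 without kidney 1, and the second ran from -2.64 to -1.54 when 1 kidney was left out.

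**Figure D1:**
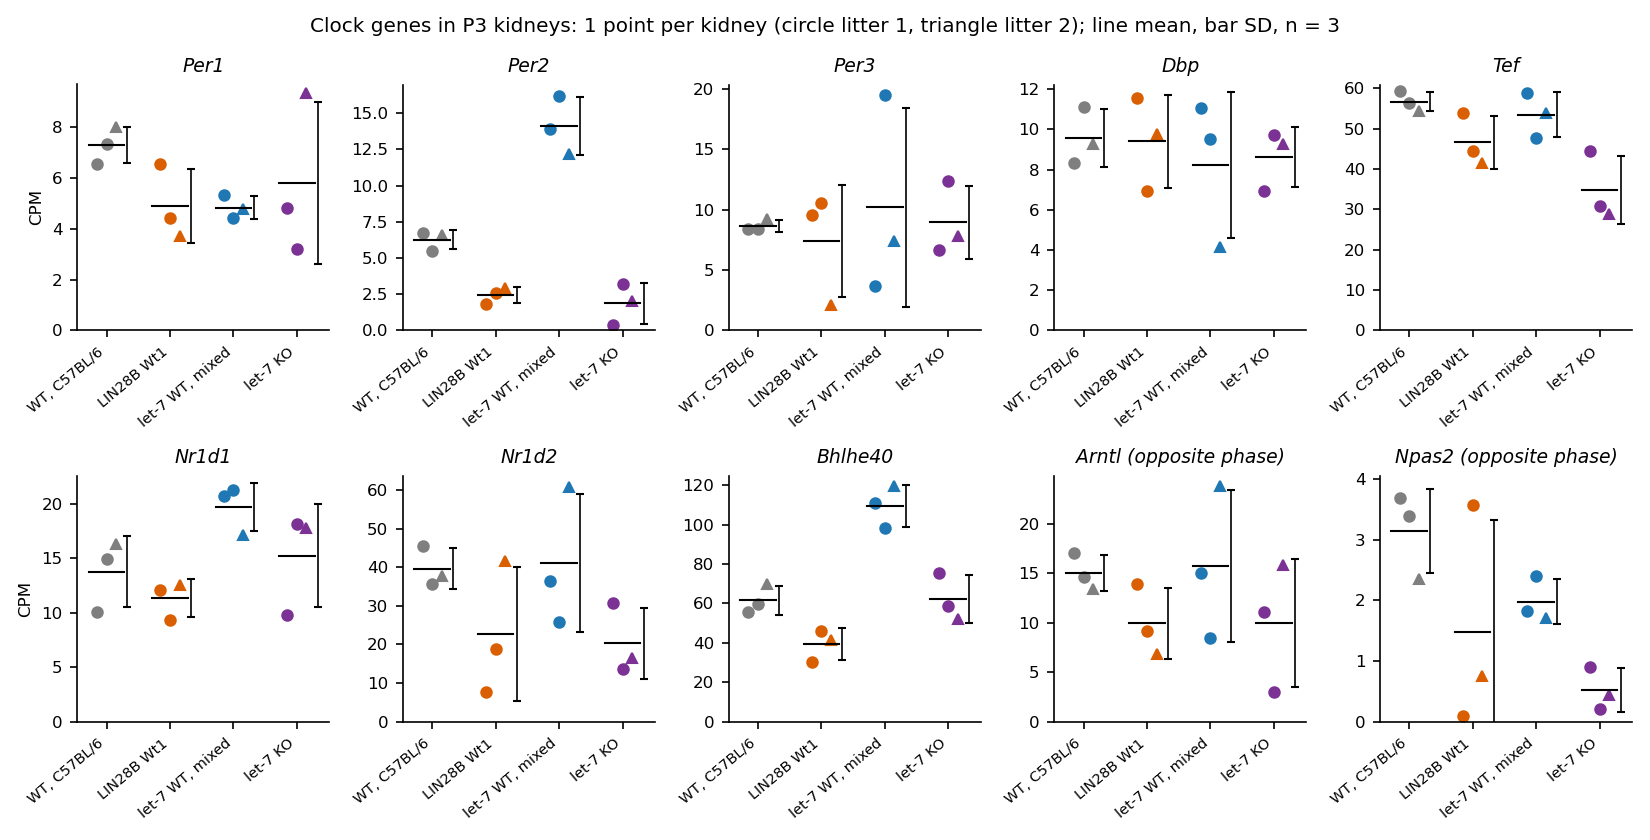
Level of each clock gene in CPM (y axis, from 0) in the 12 kidneys, by group on the x axis; circles are litter 1, triangles litter 2, the line is the mean and the bar the SD of 3 kidneys. *Per2* and *Bhlhe40* are lower in every mutant kidney than in every control kidney of the same strain and are highest in *let-7* WT, while *Dbp* and *Per3* overlap in all groups.

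Across the 10 members, the mean direction was the same for both phases. In *LIN28B Wt1* all 8 members of the *Per* and *Dbp* phase had negative log2 fold changes (median -0.43) and so did both of the *Arntl* phase (median -0.85). In *let-7* KO 6 of the 8 were negative (median -0.51), with *Per1* and *Dbp* positive, and both of the *Arntl* phase were negative (median -1.30). The medians over all genes tested were -0.02 in each model. Kidneys of mutant and control did not overlap for 4 of the 10 members in *LIN28B Wt1* (*Per1*, *Per2*, *Tef* and *Bhlhe40*), where 23.8% of all 15793 genes tested did not overlap, and for 4 in *let-7* KO (*Per2*, *Tef*, *Bhlhe40* and *Npas2*), against 16.7% of 15500 genes. In edgeR's quasi-likelihood test *Per2* and *Bhlhe40* had an unadjusted p below the study's threshold of 0.01 in both models, as did 7.33% of all genes for *LIN28B Wt1* and 2.73% of them for *let-7* KO. After Benjamini-Hochberg adjustment no member was below 0.05 in edgeR, where 1.23% and 0.0194% of all genes were, while 2 and 4 members had an unadjusted p below 0.05, as did 18% and 10.8% of all genes, and DESeq2 put 2 and 1 below an adjusted 0.05, where it put 7.89% and 1.31% of all genes. In *LIN28B Wt1* the replicate block on litter gave -1.38 for *Per2* and -0.64 for *Bhlhe40*, and 0 members were then below 0.01. Since these contrasts served to choose the members, nothing is read from any of these counts.

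**Figure D2:**
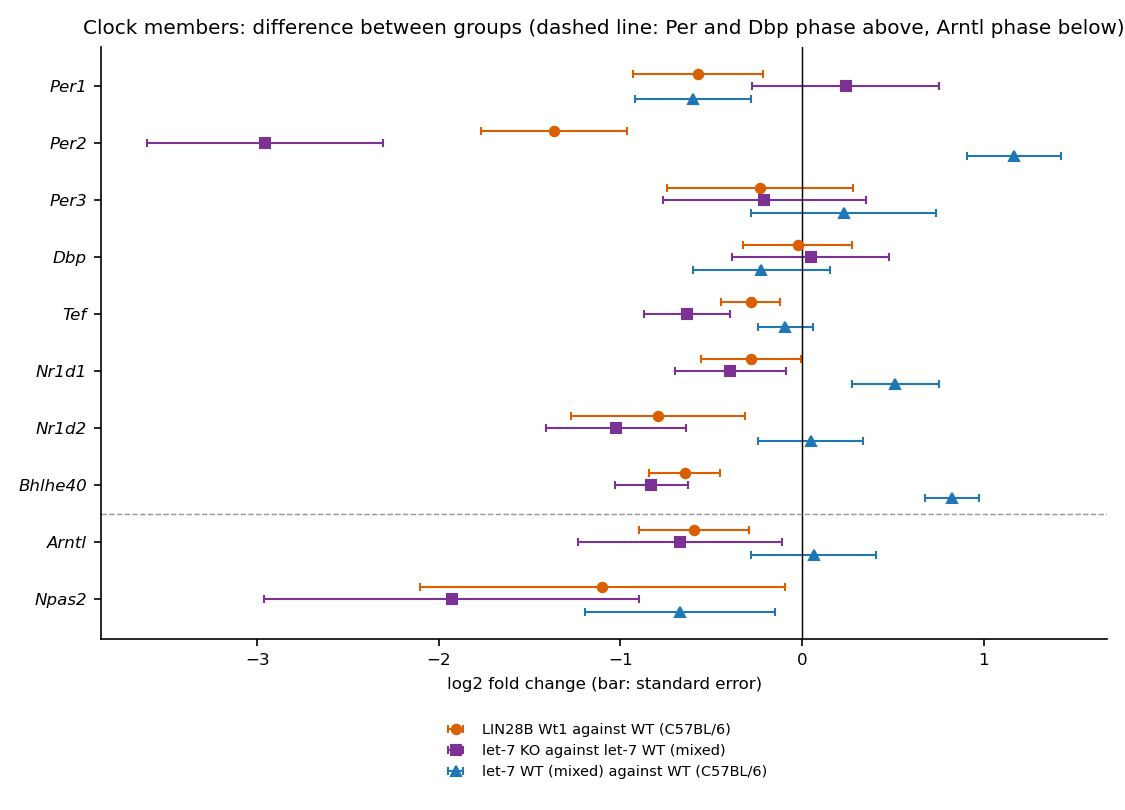
Log2 fold change of each clock gene (x axis) with its standard error, for *LIN28B Wt1* against C57BL/6 WT (circles), *let-7* KO against *let-7* WT (squares) and *let-7* WT against C57BL/6 WT (triangles). *Arntl* and *Npas2*, under the dashed line, lie on the negative side in both models as *Per2*, *Nr1d2* and *Bhlhe40* do, and *Per2* and *Bhlhe40* lie on the positive side between the wild-type groups.

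The 2 wild-type groups show how far the members differ without either mutation. Both are the controls of the contrasts on which the members were chosen, so their values are a description too. *Per2* was at 14.1 ± 1.997 CPM in *let-7* WT and 6.27 ± 0.665 CPM in C57BL/6 WT (SD, n = 3 each), a ratio of 2.25 and a log2 fold change of 1.17 (SE 0.26). *Bhlhe40* was 1.78 times as high in *let-7* WT, with a log2 fold change of 0.83 (SE 0.15) and no overlap of the groups. *Nr1d1* was also higher in every *let-7* WT kidney (log2 fold change 0.51, SE 0.24) and *Per1* lower in every one (-0.60, SE 0.32). *Per3*, *Dbp*, *Tef*, *Nr1d2*, *Arntl* and *Npas2* overlapped, with log2 fold changes between -0.67 and 0.23, and the sign for *Per3*, *Dbp*, *Nr1d2* and *Arntl* turned when 1 kidney was left out.

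In that comparison edgeR put 2 of the 10 members at an unadjusted p below 0.01 (4.79% of 15850 genes), 2 below 0.05 (12.7% of genes) and 1 at an adjusted p below 0.05 (1.19% of genes). DESeq2 put 2 at an adjusted p below 0.05 (4.3% of genes), and 4 members did not overlap (20% of genes). Nothing is read from these counts. Strain, litter and library number all separate these groups, and doxycycline is stated for the dams of only 1 of them. Strain, litter, library number and doxycycline cannot be told apart here.

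Compared per kilobase of the longest transcript, *Bhlhe40* had the highest mean of the members in each group, at 19.8 ± 2.35 CPM per kb in C57BL/6 WT and 35.2 ± 3.43 CPM per kb in *let-7* WT (SD, n = 3). In *LIN28B Wt1* it was at 12.6 ± 2.63 CPM per kb, within the spread of *Tef* at 10.6 ± 1.47 CPM per kb. In C57BL/6 WT it was followed by *Tef* at 12.9 ± 0.552, *Nr1d2* at 8.50 ± 1.13, *Dbp* at 5.21 ± 0.779 and *Nr1d1* at 5.06 ± 1.20 CPM per kb. *Dbp* and *Nr1d1* did not differ beyond their spread. *Arntl* followed at 3.76 ± 0.462, within the spread of *Nr1d1*, *Per1* at 1.57 ± 0.154, *Per3* at 1.44 ± 0.0800, *Per2* at 1.07 ± 0.114 and *Npas2* at 0.743 ± 0.164 CPM per kb, with *Per1* and *Per3* again within their spread of each other. Between groups *Per2* ranged from 0.319 ± 0.242 CPM per kb in *let-7* KO to 2.42 ± 0.342 CPM per kb in *let-7* WT.

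Variation between kidneys of 1 group was then examined, with the group mean removed so that the contrasts behind the choice of members drop out. *Nr1d2* had a pooled SD of 0.75 in log2 CPM, at percentile 99.1 of the 3179 genes of like level. *Arntl* (SD 0.78) and *Per3* (SD 0.92) stood at percentiles 93.8 and 92.6 of the genes around their levels. *Per1*, *Tef* and *Nr1d1* spread less than most genes of like level, at percentiles 23.5, 25.2 and 33.5. The highest kidney of a group was above the lowest, for *Arntl*, by 1.27-fold in C57BL/6 WT, 2.04-fold in *LIN28B Wt1*, 2.80-fold in *let-7* WT and 5.27-fold in *let-7* KO. For *Nr1d2* the same ratios were 1.28, 5.39, 2.35 and 2.28, so that the widest group was not the same for both genes. Libraries differed in their bias on transcript length as well, with slopes from -0.162 in *let-7* KO kidney 3 to 0.115 in C57BL/6 WT kidney 1, and the part of that bias in the spread was not tested.

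Pairs of members were then compared for whether they rose and fell together between kidneys of a group. Over the 29 pairs of the same phase the median Pearson r was -0.12, with 13 of 29 positive, and over the 16 pairs of opposite phase it was -0.14, with 5 of 16 positive (12 kidneys, group means removed). In an exact two-sided permutation test within groups, over 1296 arrangements, 2 of the 45 pairs had an unadjusted p below 0.05 and none had a Benjamini-Hochberg adjusted p below 0.05. The closest were *Dbp* with *Nr1d1* (r = 0.62, exact p = 0.0116, adjusted p = 0.521; Spearman rho = 0.41, exact p = 0.114, adjusted p = 0.604) and *Per2* with *Tef* (r = -0.84, exact p = 0.0463, adjusted p = 0.620; rho = -0.85, exact p = 0.0293, adjusted p = 0.389). Without the 2 kidneys farthest from the median of the first gene, r was 0.64 and -0.83. The highest positive r, 0.79, joined *Per1* and *Arntl*, which are of opposite phase (exact p = 0.0571, adjusted p = 0.620; rho = 0.64, exact p = 0.0887, adjusted p = 0.604), and fell to 0.47 without the 2 kidneys farthest out. *Nr1d1* and *Nr1d2*, close relatives of the same phase, had r = -0.43 (exact p = 0.179, adjusted p = 0.620; rho = -0.46, exact p = 0.177, adjusted p = 0.726), and -0.27 without those 2 kidneys. With means removed by strain and not by group, which leaves the mutant differences in, the medians were 0.12 and 0.32.

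**Figure D3:**
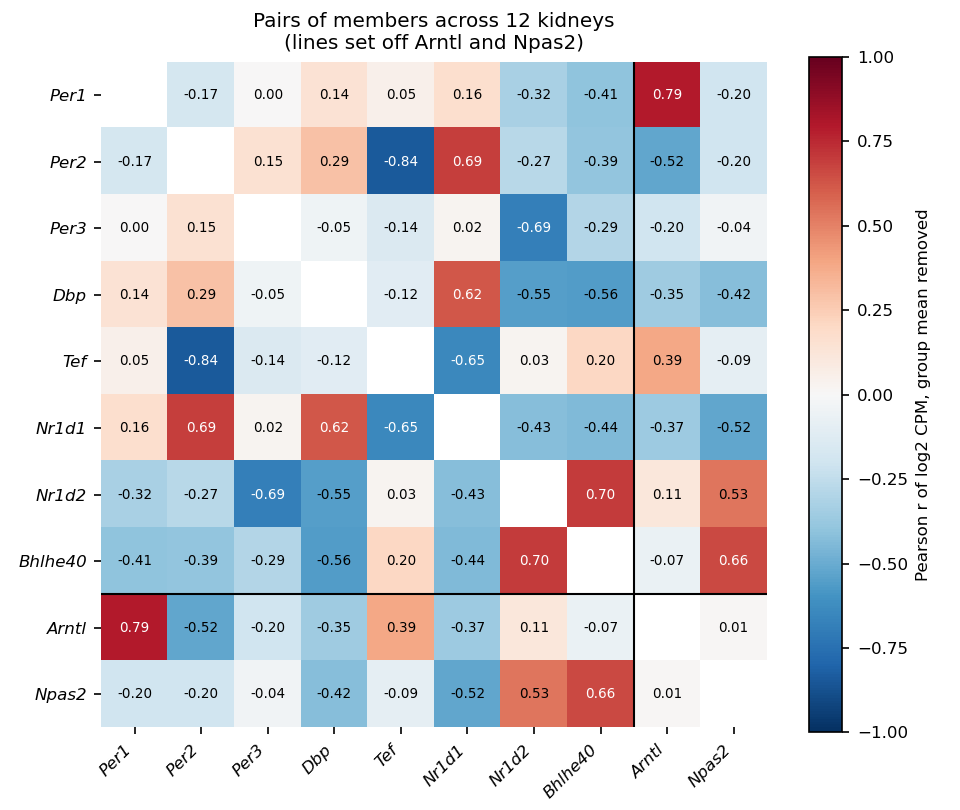
Pearson r of log2 CPM between each pair of members over 12 kidneys after removing group means (red positive, blue negative); black lines set off *Arntl* and *Npas2*. Positive and negative pairs are mixed within each block, with *Dbp* and *Nr1d1* at 0.62, *Per2* and *Tef* at -0.84 and *Per1* and *Arntl* at 0.79.

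The genes whose levels ran closest to *Per2*, *Dbp* and *Arntl* between kidneys of a group were listed for each. Among 11813 other genes with a mean of at least 5 CPM, the highest r with *Per2* belonged to *Kcnh2*, *Rmnd5b*, *Cdadc1*, *Pex11g* and *Chrna4* (0.92 to 0.95), and the lowest to *Pot1a* and *Trim27* (-0.93 each). For *Dbp* they were *Tspan1*, *Mocs3*, *Syt13*, *Arhgap10* and *Hadh* (0.88 to 0.96), with *Rrp1b* and *Gm17066* lowest (-0.95 and -0.91). For *Arntl* they were *Zfp568*, *Slc38a9*, *Cit*, *Ccser1* and *Hivep1* (0.91 to 0.95), with *1700052N19Rik* and *Wnt11* lowest (-0.95 and -0.93). The kidneys differed in library depth, and no batch is given in the sources used here. With 12 values the extreme over so many genes is a selected value, so these are descriptions. Among members, *Arntl* ranked place 81 of 11821 genes in likeness to *Per1* and *Nr1d1* place 261 in likeness to *Per2*. *Bhlhe40* ranked place 216 of 11822 in likeness to *Npas2*. Other members stood near the far end, such as *Tef* at place 11775 in likeness to *Per2* and *Nr1d2* at place 11103 in likeness to *Per3*.

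The rest of the clock was read from 20 further genes. In *LIN28B Wt1* 12 of the 19 tested had a negative log2 fold change. In edgeR's quasi-likelihood test 0 had an unadjusted p below 0.01 and 4 had one below 0.05, and DESeq2 put 1 below 0.01 (*Rora*). Of all genes tested there, 48.5% had a positive log2 fold change. EdgeR put 7.33% of them below 0.01 and 18% below 0.05, and DESeq2 put 1726 of 15793 below 0.01. The 2 largest differences among the further clock genes were *Arntl2*, a paralog of *Arntl* (log2 fold change 1.86, SE 0.82, adjusted p = 0.273), and *Rora*, which activates *Arntl* (-1.13, SE 0.36, adjusted p = 0.141). In edgeR *Rora* was below 0.01 with no filter on low counts (unadjusted p = 0.00814), in one fit of all 12 kidneys (0.00661) and with the transcript-length covariate (0.00286). In *let-7* KO, where 48.0% of all genes tested were positive and 2.73% below 0.01, 15 of the 20 were negative. *Hlf*, the third D-box activator beside *Dbp* and *Tef*, was the 1 gene of the 20 below 0.01. It was at 5.34 to 7.27 CPM against 10.7 to 16.2 CPM in *let-7* WT (log2 fold change -1.13, SE 0.34, lower in 3 of 3 kidneys, adjusted p = 0.362). Its unadjusted p in edgeR was 0.0131 with litter as a replicate block, 0.01001 with upper-quartile scaling and 0.0188 in one fit of all 12 kidneys. The next largest there was *Rorb* (0.85, SE 1.52), whose error exceeded it. *Clock*, the partner of *Arntl*, named after its values were seen, was lower in every mutant kidney than in every control of its own strain (log2 fold change -0.40, SE 0.26, adjusted p = 0.468 for *LIN28B Wt1*, then -0.61, SE 0.30, adjusted p = 0.489 for *let-7* KO) without passing. Between the wild-type groups, where 4.79% of all genes were below 0.01, *Arntl2* was below 0.01 and higher in *let-7* WT (2.51, SE 0.72, adjusted p = 0.167), followed by *Bhlhe41*, the relative of *Bhlhe40*, at -0.84 (SE 1.05). The median log2 fold change of the tested genes was -0.10 for *LIN28B Wt1*, -0.26 for *let-7* KO and 0.04 between wild types.

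**Figure D4:**
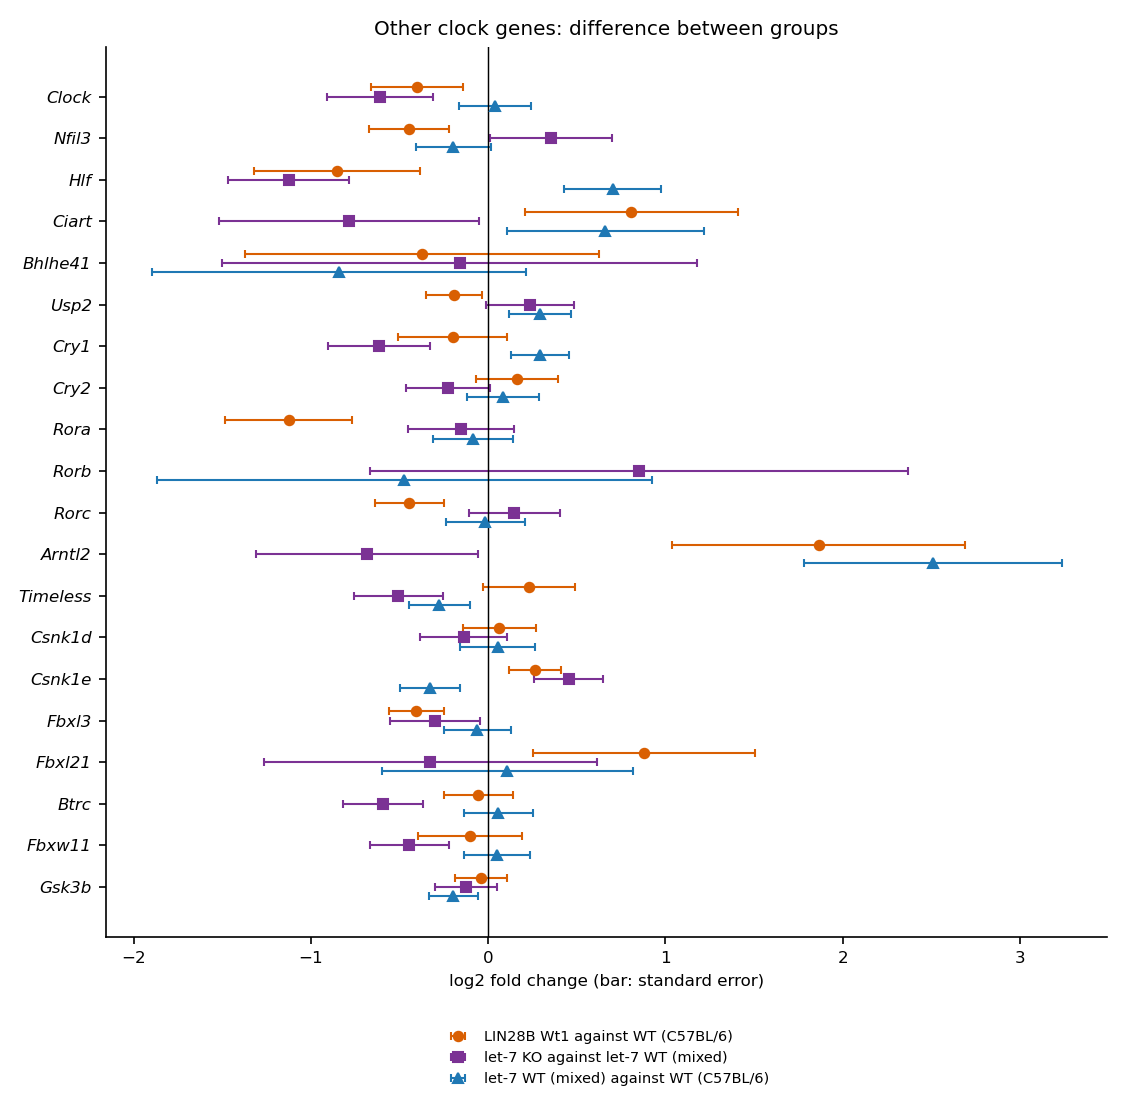
Log2 fold change (x axis) with its standard error for 20 further clock genes in the same 3 comparisons; *Rorb* was not tested in *LIN28B Wt1*. *Hlf* in *let-7* KO and *Arntl2* between wild types are the differences with an unadjusted p below 0.01.

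Of 14 genes known to be under clock control in the kidney, 13 had a negative log2 fold change in *LIN28B Wt1*. Of all genes tested there 48.5% had a positive one and 7.33% an unadjusted p below 0.01. In *let-7* KO, where 48.0% of all genes were positive and 2.73% below 0.01, 9 of the 14 were negative. In *LIN28B Wt1* 4 had an unadjusted p below 0.01, all lower: *Sgk1*, a kinase that raises sodium uptake (log2 fold change -0.74, SE 0.15, adjusted p = 0.0496), *Atp1b1*, a subunit of the sodium pump (-0.56, SE 0.12, adjusted p = 0.0573), *Scnn1a*, a subunit of the epithelial sodium channel (-0.93, SE 0.23, adjusted p = 0.0869), and the glycine transporter gene *Slc6a9* (-1.001, SE 0.31, adjusted p = 0.133). For *Slc6a9* the unadjusted p was above 0.01 with no filter on low counts (0.01003), in one fit of all 12 kidneys (0.0121) and with the transcript-length covariate (0.0138). *Sgk1* alone passed after adjustment in edgeR. For the same model DESeq2 put 5 of the 14 below an unadjusted 0.01 (1726 of 15793 genes) and 3 below an adjusted 0.05 (7.89% of genes). In *let-7* KO 2 of 14 were below 0.01, both lower, though neither with the transcript-length covariate: *Hsd11b2*, which inactivates corticosteroids (-0.91, SE 0.25, adjusted p = 0.362), and the taurine transporter gene *Slc6a6* (-0.67, SE 0.20, adjusted p = 0.362). For the knockout DESeq2 put 3 of the 14 below an unadjusted 0.01 (844 of 15500 genes) and 1 below an adjusted 0.05 (1.31% of genes). Between the wild-type groups 0 of 14 were below 0.01 in edgeR, 2 were below 0.05, and DESeq2 put 1 below 0.01. Of all genes there, 4.79% were below 0.01 and 12.7% below 0.05 in edgeR, and DESeq2 put 1141 of 15850 below 0.01. The medians of the 14 were -0.27, -0.32 and 0.06. Several of these genes are also tubule genes, and tubule markers moved in *LIN28B Wt1* too. All 4 cap mesenchyme markers, of the nephron progenitors, were higher and below 0.01 there, with a summed level of 256 to 317 CPM against 44.6 to 57.7 CPM, and the 4 proximal tubule markers summed to 694 to 882 CPM against 1571 to 1615 CPM, with 2 of the 4 below 0.01 (*Slc34a1*, log2 fold change -1.20, and *Slc5a2*, -2.71). Of the genes of later segments *Slc12a3* (-1.95), *Umod* (-1.23), *Slc12a1* (-0.98) and *Calb1* (-0.73) were lower and below 0.01. So were the endothelial genes *Pecam1* (-0.68) and *Kdr* (-0.65), though *Kdr* not in one edgeR fit of all 12 kidneys (unadjusted p = 0.0235). The stroma genes were mixed, with *Pdgfrb* (-0.81) lower and below 0.01, and *Foxd1* (0.70) and *Col1a1* (0.04) positive without passing. In *let-7* KO *Slc5a2* (-0.998) and *Calb1* (-0.88) were lower and below 0.01, and between the wild types *Slc5a2* (1.15), *Slc34a1* (0.54), *Umod* (0.54) and *Lrp2* (0.47) were higher and *Eya1* (-2.89) lower. With the transcript-length covariate neither *let-7* KO gene was below 0.01 in edgeR (unadjusted p = 0.0413 and 0.0346). In one edgeR fit of all 12 kidneys *Slc5a2* was not either (0.0517). Between the wild types that fit put *Slc5a2* (0.0259), *Umod* (0.03995) and *Lrp2* (0.0260) above 0.01 too. In *let-7* KO the same sums were 49.96 to 79.6 CPM against 29.4 to 35.5 CPM and 1552 to 1991 CPM against 2133 to 2501 CPM. Their part in the clock values was not tested.

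Other conditions that reach clock genes were read from short lists. Of 11 glucocorticoid-responsive genes, a list that shares *Per1*, *Sgk1* and *Tsc22d3* with those above, 1 was below 0.01 in *LIN28B Wt1* (*Sgk1*, lower) and 1 of 10 in *let-7* KO (*Errfi1*, an inhibitor of EGF receptor signalling, log2 fold change -0.64, SE 0.19, adjusted p = 0.362, unadjusted p = 0.0131 with the replicate block and 0.0304 with the transcript-length covariate). Between the wild-type groups *Dusp1* (0.58, adjusted p = 0.201), *Cdkn1a* (0.72, adjusted p = 0.0851) and *Errfi1* (0.63, adjusted p = 0.117) were higher in *let-7* WT and *Zbtb16* was lower, at 0 to 0.0170 CPM against 0.528 to 1.43 CPM (adjusted p = 0.0804). For *Dusp1* the unadjusted p in edgeR was 0.0120 with upper-quartile scaling and 0.0638 in one fit of all 12 kidneys. In edgeR 7 of the 11 had an unadjusted p below 0.05 and none an adjusted p below 0.05, while DESeq2 put 3 below an adjusted 0.05. For all genes between the wild types these shares were 12.7% and 1.19% in edgeR and 4.3% in DESeq2. Of the immediate early genes, switched on within minutes of a stimulus, 8 of 8 tested had positive log2 fold changes between *let-7* WT and C57BL/6 WT, as *Per2* and *Bhlhe40* did, and *Atf3* (1.95, SE 0.41, adjusted p = 0.0587) and *Junb* (0.59, SE 0.18, adjusted p = 0.179) were below 0.01, with none below an adjusted 0.05 in edgeR, 5 of 8 below an unadjusted 0.05 and 2 below an adjusted 0.05 in DESeq2. In the single fit of all 12 kidneys neither was (unadjusted p 0.0135 and 0.0990). Of all genes, 48.5% had a positive log2 fold change between the wild types. No immediate early gene was below 0.01 in edgeR in either model, where 3 of 8 and 1 of 9 were below 0.05 and DESeq2 put 2 and 0 below 0.01. In the same models 18% and 10.8% of all genes were below 0.05 in edgeR, and DESeq2 put 1726 and 844 genes below 0.01. Of 7 temperature-responsive genes only *Rbm3*, a cold-induced RNA-binding protein gene, was below 0.01, in *LIN28B Wt1* (0.49, SE 0.14, adjusted p = 0.120, unadjusted p = 0.0130 with the replicate block). The part of any of these in the differences of *Per2* and *Bhlhe40* was not tested.

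Markers of other tissues also differed between groups. The brown fat genes *Ucp1* and *Adipoq* together reached 4.87 to 39.5 CPM in C57BL/6 WT, 0 to 5.43 CPM in *LIN28B Wt1*, 0 to 0.119 CPM in *let-7* WT and 0 to 3.54 CPM in *let-7* KO. *Cyp11b1*, which defines the adrenal cortex, was at 0 in all kidneys but 1, at 0.460 CPM, and *Cyp11a1*, the first enzyme of steroid synthesis, was at 0 in every C57BL/6 WT kidney, at 0.0163 to 1.12 CPM in *LIN28B Wt1*, 0 to 1.23 CPM in *let-7* WT and 0 to 1.85 CPM in *let-7* KO. *Star*, which brings cholesterol to that enzyme, was at 1.09 to 4.89 CPM over all kidneys, and the liver gene *Alb* was at most 5.82 CPM. Their part in the clock values was not tested.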

How the data were processed

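Whole kidneys at postnatal day 3 were profiled by RNA-seq (SMARTer Ultra Low RNA kit, Illumina HiSeq). The deposited values are raw read counts per gene symbol, made by the authors before deposit; their processing notes name cutadapt, TopHat2 2.0.9, Bowtie2, SAMtools 0.1.19, HTSeq and mm10. Strand setting is not given in the sources used here. The members and all gene lists were chosen with earlier results of these data known.

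Counts were filtered per comparison (filterByExpr, minimum count 10, minimum total 15), scaled by TMM and tested two-sided with edgeR 4.0.16 quasi-likelihood fits of the 2 groups compared (R 4.3.3), with Benjamini-Hochberg adjustment over all genes tested. A gene was counted as called at an unadjusted p below 0.01, the threshold of the study. Log2 CPM used a prior count of 2. Totals were 39926235 to 61872736 counts; floors cover counting error only. Replicate pairs differed beyond sampling noise in every group (chi-square per gene at least 31.7). The study describes the kidneys as biological replicates, and litters are from the labels. Equal litter numbers were read as the same litter in mutants and controls of a strain. The within-litter differences and the replicate block rest on that reading. Deviations of mutant and control kidneys with the same number correlated no more than others (mean r -0.04 against 0.05, and -0.01 against 0.01). On simulated counts with 15793 genes for the *LIN28B Wt1* design, 67% of changes of size 1 (log2) and 88% of size 2 were recovered. For the *let-7* KO design with 15500 genes the shares were 59% and 83.8%. Recovered meant an unadjusted p below 0.01 in the right direction. Changes were placed only in genes above a floor on the mean count, so the shares do not cover genes below it.

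The named genes were all members, every gene of the other lists below 0.01, the 2 largest differences among other clock genes, and for *Per2*, *Dbp* and *Arntl* the 5 highest and 2 lowest correlated genes. Alternatives were DESeq2 1.42.0, upper-quartile scaling, no filter, 1 fit of all 12 kidneys, litter as a replicate block, each kidney left out, library-total CPM, centring on strain and, added after seeing the data, a transcript-length covariate. Promoters and miRNAs are from RefSeq (GRCm38.p6), gene positions, transcript lengths and 3′ UTRs from the GENCODE annotation of GRCm38.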

Additional observations from a re-analysis of the deposited data

Results flagged for a closer look

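*Arntl2*, a paralog of *Arntl*, moved in opposite directions in the models. Every *LIN28B Wt1* kidney was higher than every C57BL/6 WT kidney (2.19 to 2.68 CPM against 0.267 to 1.26 CPM, log2 fold change 1.86), whereas every *let-7* KO kidney was lower than every *let-7* WT kidney (1.44 to 3.01 CPM against 3.44 to 3.94 CPM, log2 fold change -0.68). In a fit of all 12 kidneys the difference between these log2 fold changes was 2.53 (SE 0.97, adjusted p = 0.699 in edgeR's quasi-likelihood test over all genes) and did not pass. The mutant ranges of the models overlapped, and the wild-type groups did not.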

How the results depend on the processing

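No value of a member changed from called to the opposite direction. Of 350 member values under alternatives, 329 stayed on their side of the threshold, 15 lost the call and 6 gained it; of 500 values of other named genes the numbers were 404, 91 and 5. For *LIN28B Wt1* the genes called went from 1158 to 194 at an adjusted p below 0.05 and to between 515 (without C57BL/6 WT kidney 2) and 2509 (without *LIN28B Wt1* kidney 3), and members called from 2 to 0 at the adjusted threshold, 0 with the replicate block, 1 in the fit of all 12 kidneys, 1 with the length covariate and between 0 and 3 leaving out 1 kidney. For *let-7* KO the genes went from 423 to 3 (adjusted), 844 (DESeq2), 687 (all 12 kidneys), 273 (length covariate) and between 162 (without *let-7* KO kidney 2) and 1296 (without *let-7* KO kidney 1), and the members from 2 to 0 (adjusted), 3 (DESeq2, with *Nr1d2*), 3 (all 12 kidneys, with *Tef*) and between 1 and 4 without those same kidneys. Between wild types the genes went from 759 to 188 (adjusted), 1141 (DESeq2), 1159 (length covariate) and between 454 (without C57BL/6 WT kidney 2) and 1130 (without *let-7* WT kidney 3), and the members from 2 to 1 (adjusted) and 1 (all 12 kidneys). Beyond *Per2*, *Bhlhe40* and *Rbm3* in *LIN28B Wt1*, and *Hlf* and *Errfi1* in *let-7* KO, the replicate block ended only the call of the endothelial gene *Kdr* (-0.64, *LIN28B Wt1*) among named genes and changed no other. The median r of pairs moved to 0.12 (same phase) and 0.32 (opposite phase) when centred on strain. The cause of these shifts was not tested, and nothing is read from the counts of members. The main counts of 1158, 423 and 759 genes called were 7.33%, 2.73% and 4.79% of the genes tested.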
